A study of Homo sapiens with 12 samples.

Results

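Kinesins are motor proteins that step along microtubules. The 35 genes described here are 13 kinesins of the mitotic spindle and of cytokinesis, 17 genes of intracellular transport (14 motors and the light chains KLC1, KLC2 and KLC4) and 5 kinesins of the cilium and of microtubule ends. They were chosen by gene symbol, from a list written with earlier results of the same libraries known, out of 23583 features in the table of counts. All 35 were found and all 35 passed the filter on low counts, which left 16946 features to be tested. RNA was sequenced from 2 human hepatocellular carcinoma cell lines in 4 groups of 3 libraries each, which were Huh7 with si-circASH2, Huh7 with si-NC, HCCLM3 with si-circASH2 and HCCLM3 with si-NC. Here si-circASH2 is an siRNA against the circular RNA circASH2 and si-NC is the control siRNA. No other treatment or allele is labelled in any group. Neither the siRNA sequence nor the time between transfection and harvest is given in the sources used here. Since nothing states that replicates were separate cultures, p-values below refer to the spread among these libraries, and that spread may be technical. The circular RNA itself was not matched to a row of the table and is not analysed here, so the extent of its knockdown is unknown.

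Mitotic kinesins are made anew in each cell cycle, in G2 and M phase, and are lost after division. They build a bipolar spindle, carry chromosomes to its equator, and bring the regulators of cytokinesis to the midzone between the separating chromosomes. Transport kinesins are needed in cells at every stage. Kinesin-1, a pair of KIF5 heavy chains with a pair of light chains, and the kinesin-3 family carry vesicles, endosomes, lysosomes and mitochondria toward the cell edge, and kinesin-2 also builds cilia. In hepatocytes these motors serve the traffic of secretory and endocytic vesicles along microtubules.

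Many genes of G2 and M phase share a short element close to the start of transcription, the cell cycle genes homology region (CHR, searched here as TTTGAA). Protein complexes known as DREAM and MMB bind it, and one or more CCAAT boxes, bound by NF-Y, often stand just before it. Both were searched on both strands in the RefSeq promoters of GRCh38.p14, from 250 bases before the start of transcription to 50 bases after it, and their letters do not overlap. Only the spellings TTTGAA and CCAAT were searched. A promoter without them may hold another spelling of either element, which was not looked for. A promoter was matched for 28 of the 35 genes. The CHR letters stood in 9 of 13 mitotic kinesin promoters (69.2%), in 1 of 11 transport promoters (9.09%) and in 0 of 4 promoters of cilium and microtubule-end kinesins, beside 10.2% of the 11101 matched promoters of tested genes. A CCAAT box stood in 10 of 13 mitotic promoters (76.9%), 3 of 11 transport promoters and 1 of 4 of the remaining class, beside 36.3% of the tested genes. Both motifs stood together in 8 of the 13 mitotic promoters, which were those of KIF11, KIFC1, KIF4A, KIF18A, KIF18B, KIF14, KIF20B and KIF23, against 4.22% of the tested genes. In the searched spellings, KIF15 had the CHR letters alone, KIF22 and KIF20A had CCAAT boxes alone, and CENPE and KIF2C had neither. Medians of GC content were 62.3% in mitotic and 73.3% in transport promoters, beside 64.7% over the tested genes, and the base composition changes how often such words occur. A match of letters is a description and does not show that a factor binds.

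The windows of 8 genes are printed to show the layouts behind these counts, from 150 bases before the start of transcription to 50 bases after it, on the strand of the gene, with the CHR letters and the CCAAT letters of either strand (ATTGG on the other one) in capitals. KIF11 (chr10:92592980-92593179, plus strand), KIF4A (chrX:70289954-70290153, plus strand), KIF18A (chr11:28108107-28108306, minus strand) and KIF23 (chr15:69414199-69414398, plus strand) stand for mitotic kinesins with a CCAAT box followed by a CHR word. KIF20B (chr10:89701440-89701639, plus strand) has a pair of CCAAT boxes and a pair of CHR words in direct succession. KIF2C (chr1:44739687-44739886, plus strand) is a mitotic kinesin with neither motif in the searched spelling. KIF5B (chr10:32056376-32056575, minus strand) is the transport gene with both motifs among the 11 searched, and KIF1C (chr17:4997800-4997999, plus strand) is a transport gene with neither.
KIF11: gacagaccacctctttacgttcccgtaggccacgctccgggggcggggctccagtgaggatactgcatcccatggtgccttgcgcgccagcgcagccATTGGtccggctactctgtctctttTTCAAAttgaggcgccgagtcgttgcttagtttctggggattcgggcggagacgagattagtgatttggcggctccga
KIF4A: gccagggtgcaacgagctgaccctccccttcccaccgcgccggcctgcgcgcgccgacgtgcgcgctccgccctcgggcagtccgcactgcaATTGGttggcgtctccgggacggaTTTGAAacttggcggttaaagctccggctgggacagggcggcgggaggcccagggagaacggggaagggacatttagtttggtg
KIF18A: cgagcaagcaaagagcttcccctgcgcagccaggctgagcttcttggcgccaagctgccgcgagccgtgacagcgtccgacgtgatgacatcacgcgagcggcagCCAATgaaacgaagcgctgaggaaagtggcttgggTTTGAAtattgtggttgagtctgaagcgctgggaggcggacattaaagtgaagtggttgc
KIF23: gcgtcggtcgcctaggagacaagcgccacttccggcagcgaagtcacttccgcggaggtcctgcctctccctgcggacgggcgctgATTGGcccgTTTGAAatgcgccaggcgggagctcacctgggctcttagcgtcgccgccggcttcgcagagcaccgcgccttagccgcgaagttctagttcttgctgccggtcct
KIF20B: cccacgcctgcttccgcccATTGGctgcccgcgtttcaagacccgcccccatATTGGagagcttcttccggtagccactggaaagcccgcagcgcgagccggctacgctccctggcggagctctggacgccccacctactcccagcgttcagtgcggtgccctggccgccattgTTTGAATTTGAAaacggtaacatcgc
KIF2C: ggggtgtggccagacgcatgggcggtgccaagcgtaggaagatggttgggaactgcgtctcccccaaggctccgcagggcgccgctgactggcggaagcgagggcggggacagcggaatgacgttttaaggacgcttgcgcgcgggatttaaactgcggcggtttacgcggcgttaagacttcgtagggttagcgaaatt
KIF5B: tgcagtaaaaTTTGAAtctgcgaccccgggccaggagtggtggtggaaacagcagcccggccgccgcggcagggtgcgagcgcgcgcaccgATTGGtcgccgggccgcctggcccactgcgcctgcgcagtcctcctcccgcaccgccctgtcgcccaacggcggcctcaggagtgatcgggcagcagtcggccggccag
KIF1C: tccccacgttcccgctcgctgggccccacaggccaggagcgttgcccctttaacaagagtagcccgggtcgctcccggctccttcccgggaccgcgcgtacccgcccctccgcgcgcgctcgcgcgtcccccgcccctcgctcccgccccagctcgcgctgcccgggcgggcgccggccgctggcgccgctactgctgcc

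The first base of the CHR word lay 28 bases before the start of transcription in KIF11, 34 before in KIF4A, 35 before in KIF15, 10 before in KIF18A and 55 before in KIF23. It lay at base 5 after the start in KIFC1, base 3 in KIF18B, base 2 in KIF14 and bases 25 and 31 in KIF20B. In KIF5B it lay 140 bases before the start, farther out than in any of the 9 mitotic promoters with the word. The CCAAT box of KIF5B lay 59 bases before the start, so that the CHR word came first, unlike in the mitotic promoters with both motifs. No promoter of KLC2 was matched.

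**Figure D1:**
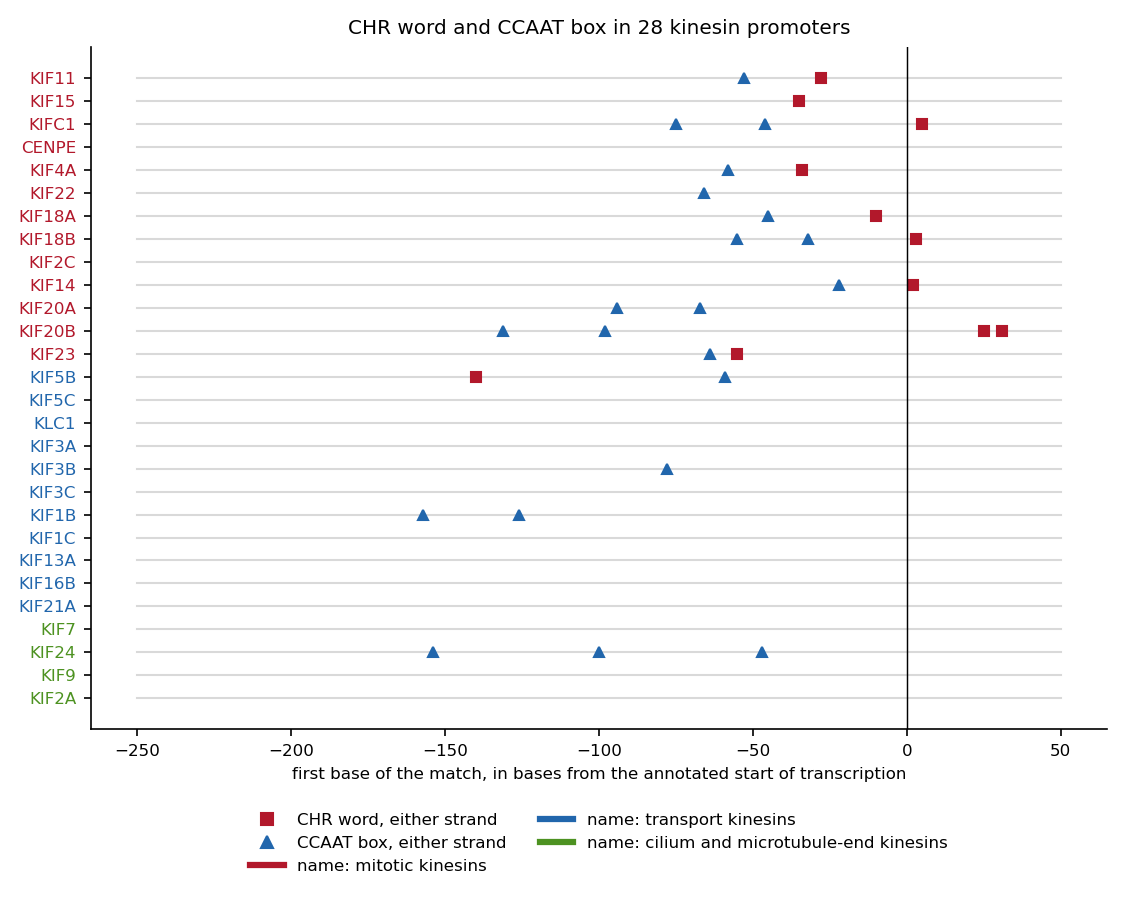
Position of CHR words (squares) and CCAAT boxes (triangles) in the 28 matched kinesin promoters, in bases from the annotated start of transcription, with gene names coloured by class. The CHR words of the mitotic kinesins lie within 55 bases of the start, and among the 11 matched transport genes the word stands in KIF5B only.

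All libraries had between 29006781 and 30858895 counts, so that 3 counts were worth 0.0981 to 0.105 CPM (counts relative to the library size after TMM scaling). Replicates of a group differed by more than counting noise in every pair (chi-square per degree of freedom 3.72 to 8.02). Of 9 hepatocyte markers, all averaged at least 192 CPM in both Huh7 groups. In HCCLM3 the keratins KRT8 and KRT18 and the transcription factor HNF4A were present at 91.4 CPM or more, while the secreted proteins ALB, AFP, APOA1, TTR and SERPINA1 stood at 4.88 CPM or less. The secreted protein APOB stood between, at 64.5, 64.0 and 62.6 CPM with si-circASH2 and 54.4, 53.6 and 47.9 CPM with si-NC. The hepatocyte label thus rests there on KRT8, KRT18, HNF4A and APOB. Summed fibroblast markers were 51.5 ± 0.904 CPM in Huh7 with si-circASH2 and 33.8 ± 3.09 CPM with si-NC, and in HCCLM3 3.04 ± 0.629 CPM with si-circASH2 and 2.07 ± 0.391 CPM with si-NC (SD, n = 3 each). Of these 5 markers 3 were called higher in Huh7 and 0 in HCCLM3. Leukocyte markers summed to 351 ± 13.8 CPM with si-circASH2 and 396 ± 19.0 CPM with si-NC in Huh7, and to 188 ± 18.5 CPM with si-circASH2 and 154 ± 11.1 CPM with si-NC in HCCLM3. Of them CD68 was higher in both lines (38.6 ± 1.98 CPM with si-circASH2 and 20.7 ± 0.456 CPM with si-NC in Huh7) and LYZ was lower in Huh7, while PTPRC, the pan-leukocyte marker, averaged 0.849 CPM or less in every group and CD3E was at 0 in all libraries. Endothelial markers summed to 24.1 ± 0.374 CPM with si-circASH2 and 26.2 ± 1.88 CPM with si-NC in Huh7, and to 21.3 ± 1.13 CPM with si-circASH2 and 26.9 ± 0.887 CPM with si-NC in HCCLM3, where PECAM1 and KDR were lower and CDH5 was at 0. Over all tested genes the median log2 fold change was 0.01 in Huh7 and 0 in HCCLM3.

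Knockdown in Huh7 was followed by lower RNA of every mitotic kinesin. All 13 fell, with log2 fold changes between -0.54 and -0.23 and a median of -0.41, and in each of the 13 the 3 si-circASH2 libraries lay below the 3 si-NC libraries. How many of all tested genes had groups apart like this was not counted, so no result is drawn from the separation. The background is wide, since edgeR's quasi-likelihood test called 31.4% of all tested genes in Huh7 (adjusted p under 0.05), 15.1% lower and 16.3% higher. The summed level of the 13 genes was 782 ± 19.9 CPM with si-circASH2 and 1033 ± 7.65 CPM with si-NC. In RNA from whole cultures, fewer cells in G2 and M phase and less RNA per such cell cannot be told apart. The count stayed at 13 under every alternative and without each library in turn. The changes of fibroblast and leukocyte markers in the same libraries are given above, and their part in this result was not tested.

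Among the motors that separate the poles, KIF11 slides antiparallel microtubules apart and is the motor that drugs such as monastrol inhibit. Its level was 66.3, 72.4 and 68.5 CPM in the si-circASH2 libraries of Huh7, against 101, 104 and 96.1 CPM in the si-NC libraries. The groups lay far apart, and KIF11 fell by 31.1% (log2 fold change -0.54 ± 0.04, adjusted p = 1.3e-09), the largest fall among the 35 genes in Huh7. KIF15, which helps KIF11 to keep the spindle bipolar, had 41.0, 42.3 and 41.8 CPM with si-circASH2 and 57.2, 55.3 and 57.3 CPM with si-NC (-0.44 ± 0.05, adjusted p = 1.1e-07). KIFC1, a minus-end-directed motor that gathers spindle poles and extra centrosomes, fell by 0.37 on the log2 scale (adjusted p = 1.4e-06).

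The motors that act on chromosomes fell as well. KIF4A, a chromokinesin that also sets the length of midzone microtubules, had 69.1, 71.1 and 69.5 CPM with si-circASH2 and 92.8, 96.2 and 94.1 CPM with si-NC (-0.43 ± 0.04, adjusted p = 5.4e-09). KIF22, the chromokinesin that pushes chromosome arms from the poles, had 56.8, 55.3 and 52.6 CPM with si-circASH2 and 74.9, 76.8 and 74.7 CPM with si-NC (-0.46 ± 0.04, adjusted p = 1.9e-08). In both genes the highest si-circASH2 library was below the lowest si-NC library by a wide margin. CENPE, which carries chromosomes to the equator from the kinetochore, fell by 0.34 and KIF18A, which dampens chromosome oscillation, by 0.28 (adjusted p = 1.2e-05 and 0.00074). These last values were more scattered, with 34.8, 38.7 and 42.9 CPM for KIF18A in the 3 si-circASH2 libraries and 46.3, 49.4 and 45.6 CPM in the si-NC libraries. KIF4A and KIF18A share exon positions with genes on the opposite strand (PDZD11 and METTL15), and KIF20A, described next, shares them with BRD8 and CDC23. Reads from such overlaps cannot be assigned to a strand here. METTL15 had a mean of 723 counts against 1351 for KIF18A. It was at 0.16 in Huh7 (adjusted p = 0.0479) and 0.34 in HCCLM3 (adjusted p = 0.00031), and the part of such reads in the values of KIF18A was not tested. BRD8 had a mean of 1725 counts against 2148 for KIF20A and was at -0.12 in Huh7 (adjusted p = 0.0399) and 0.13 in HCCLM3 (adjusted p = 0.0387), and the part of such reads in the values of KIF20A was not tested. KIF4B, a near-identical copy of KIF4A, was listed at 1.06 CPM or less on average in every group.

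Microtubule-shortening motors gave the same direction. KIF18B, which trims astral microtubules, had 63.9, 59.2 and 58.4 CPM with si-circASH2 and 88.3, 83.6 and 82.9 CPM with si-NC (-0.49 ± 0.05, adjusted p = 1.2e-08). KIF2C, known as MCAK, which releases wrongly attached microtubules at kinetochores, had 80.0, 87.3 and 83.9 CPM with si-circASH2 and 110.3, 111 and 114 CPM with si-NC (-0.41 ± 0.04, adjusted p = 2.3e-08). The cytokinesis motors split into a larger and a smaller fall. KIF20A, which carries the chromosomal passenger complex to the midzone, had 53.4, 53.5 and 54.1 CPM with si-circASH2 and 70.8, 71.4 and 71.9 CPM with si-NC (-0.41 ± 0.04, adjusted p = 2.1e-08). KIF23, the motor of centralspindlin, had 88.0, 99.3 and 84.9 CPM with si-circASH2 and 125, 123 and 119 CPM with si-NC (-0.43 ± 0.05, adjusted p = 2.3e-07). KIF20B and KIF14, which also act in cytokinesis, had the values closest to 0 of the 13, -0.24 ± 0.05 and -0.23 ± 0.06 (adjusted p = 0.00035 and 0.0022).

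**Figure D2:**
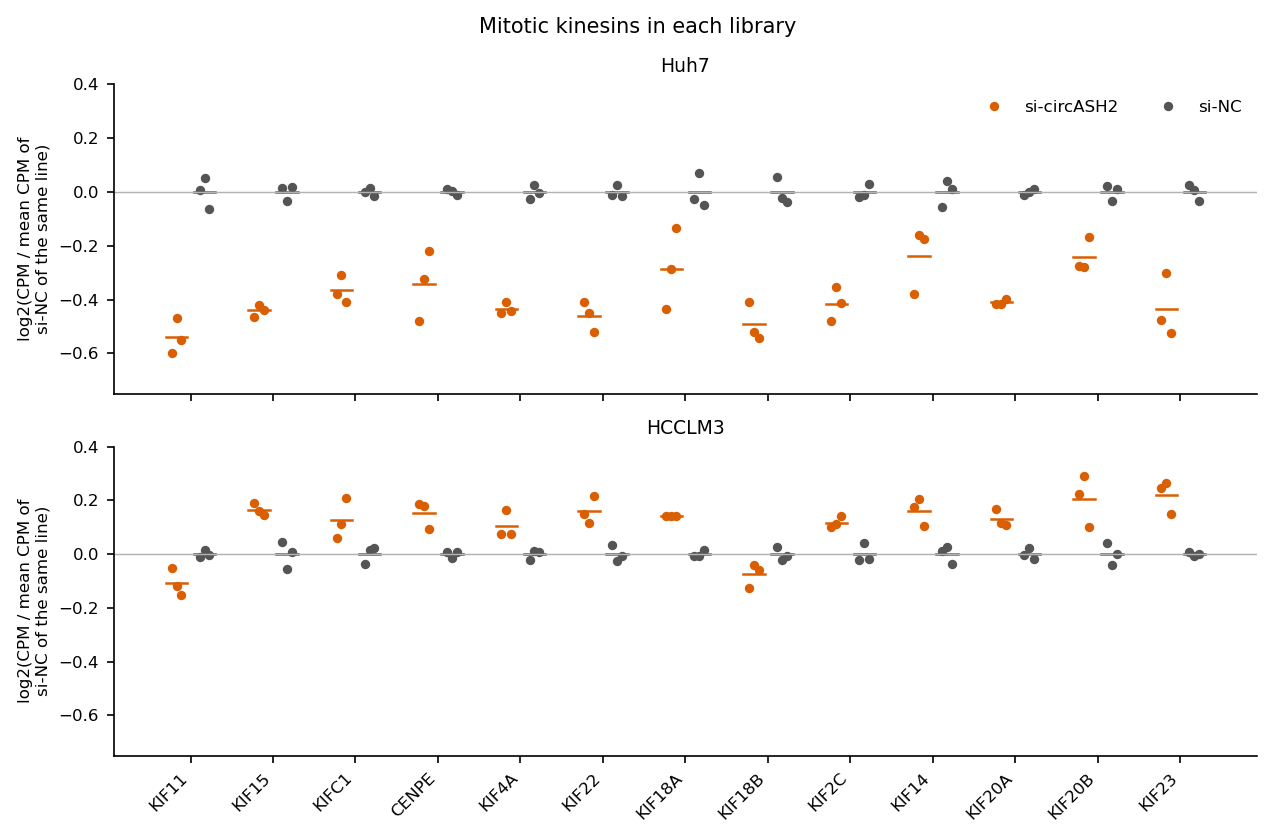
Each of the 13 mitotic kinesins in each library, as log2 of its CPM over the mean si-NC CPM of the same line (points are libraries, short lines are the group means of these log2 ratios, Huh7 above and HCCLM3 below). All si-circASH2 points of Huh7 lie below the si-NC points, and in HCCLM3 those of 11 genes lie above and those of KIF11 and KIF18B below.

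The same siRNA in HCCLM3 was followed by small changes that mostly ran the other way. Of the 13 mitotic kinesins 10 were higher, 0 were lower and 3 did not pass the test, with values between -0.11 and 0.22 and a median of 0.14. In this line 30.6% of all tested genes were called, 15.1% higher and 15.5% lower. The si-circASH2 libraries lay above the si-NC libraries for 11 genes and below for 2. The share of all tested genes with separate groups was not counted in this line either. The summed level was 1131 ± 18.3 CPM with si-circASH2 and 1044 ± 1.45 CPM with si-NC. The count of 10 fell when any 1 of the HCCLM3 libraries was left out. It came to 6 without si-NC replicate 1, 6 without si-NC replicate 2, 5 without si-NC replicate 3, 6 without si-circASH2 replicate 1 and 6 without si-circASH2 replicate 2, while no value changed its sign. Without si-circASH2 replicate 3 the calls of KIFC1 and KIF2C were lost.

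KIF23 had the largest value in HCCLM3, with 113, 114 and 105 CPM in the si-circASH2 libraries against 95.4, 94.6 and 94.9 CPM in the si-NC libraries (0.22 ± 0.05, adjusted p = 0.001). KIF20B followed with 84.4, 88.5 and 77.5 CPM with si-circASH2 and 74.4, 70.3 and 72.4 CPM with si-NC (0.21 ± 0.05, adjusted p = 0.0017). Both are motors of cytokinesis, and both passed the test under every alternative and without each library. KIF22 also rose throughout, with 69.4, 67.8 and 72.6 CPM with si-circASH2 and 64.0, 61.4 and 62.2 CPM with si-NC (0.16 ± 0.04, adjusted p = 0.0061). KIF15 reached 0.17 ± 0.05, KIF14 0.16 ± 0.05, CENPE 0.15 ± 0.05 and KIF20A 0.13 ± 0.04 (adjusted p = 0.011, 0.016, 0.021 and 0.011). KIFC1 at 0.13 ± 0.04, KIF2C at 0.12 ± 0.04 and KIF4A at 0.10 ± 0.04 were closest to the threshold (adjusted p = 0.033, 0.032 and 0.03). Each of these 7 calls was lost without 1 or more of the HCCLM3 libraries. CENPE, KIF14 and KIF2C also missed the threshold with limma on FPKM, where adjusted p lay between 0.0738 and 0.132.

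KIF11 and KIF18B stood apart from the others in HCCLM3. KIF11 had 93.0, 88.8 and 86.6 CPM with si-circASH2 and 95.6, 97.2 and 96.1 CPM with si-NC, so that all 3 si-circASH2 libraries were the lower ones here too, at -0.11 ± 0.04 (adjusted p = 0.063). The value passed with the line fitted alone (adjusted p = 0.0446) and without si-circASH2 replicate 1 (0.0387). KIF18B had 52.8, 56.0 and 55.3 CPM with si-circASH2 and 58.7, 56.8 and 57.4 CPM with si-NC, at -0.07 ± 0.05 (adjusted p = 0.25). KIF18A was at 0.14 ± 0.06 (adjusted p = 0.072), with 49.7, 49.7 and 49.7 CPM with si-circASH2 and 44.8, 44.8 and 45.6 CPM with si-NC. It was called higher with library size alone (adjusted p = 0.042), with the line fitted alone (0.0137) and without Huh7 si-circASH2 replicate 1 or 3 (0.0337 and 0.0387).

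The response of all 13 mitotic kinesins differed between the lines. The difference of the log2 fold changes, HCCLM3 minus Huh7, was above 0 for every one, between 0.40 and 0.65 with a median of 0.49, and all 13 passed the interaction test, which called 20.9% of all tested genes, 9.6% higher and 11.3% lower. This count was 13 under every alternative and without each library. The difference was 0.65 ± 0.07 for KIF23, 0.62 ± 0.06 for KIF22, 0.61 ± 0.07 for KIF15, 0.54 ± 0.05 for KIF20A, 0.54 ± 0.05 for KIF4A and 0.53 ± 0.06 for KIF2C. The adjusted p of these 6 genes lay between 8e-08 (KIF4A) and 4.8e-07 (KIF15). For KIF11, whose si-circASH2 libraries were the lower ones in each line, the difference was 0.43 ± 0.06 (adjusted p = 1.3e-05), its value in Huh7 being the farther from 0. Across the 13 genes the effects in the lines had Pearson's r = 0.62 and Spearman's rho = 0.46, and across 34 of the 35 genes, without KIF5C, r = 0.15 and rho = 0.12. Genes are not independent replicates, and this is given as a description.

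**Figure D3:**
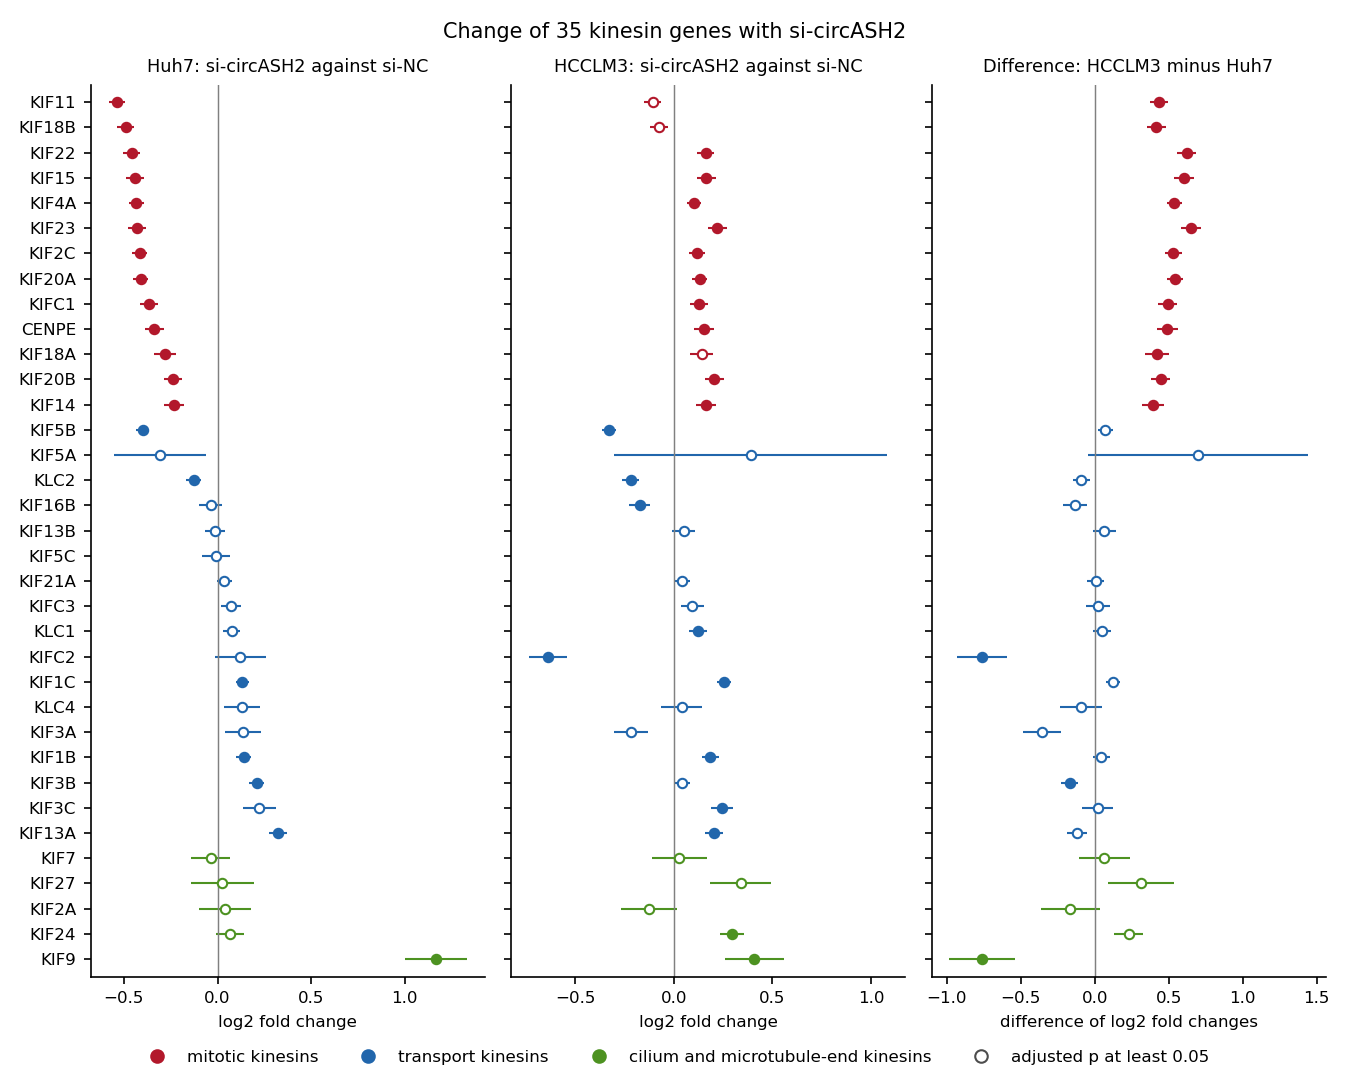
Log2 fold change of each of the 35 genes with si-circASH2 against si-NC in Huh7 and in HCCLM3, and the difference of the effects (HCCLM3 minus Huh7). Bars are 1 standard error, filled points have adjusted p under 0.05, each panel has its own scale, and KIF5C, at 0 counts in HCCLM3, is left out of the second and the third panel. The 13 mitotic kinesins lie left of 0 in Huh7 and right of 0 in the panel of differences.

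Partners of the mitotic motors mostly moved in the same directions. Of 16 genes whose products bind, regulate or work beside these kinesins, 15 fell in Huh7 and BIRC5 did not pass, with a median of -0.33, beside 15.1% of all tested genes lower. In HCCLM3 10 rose and 6 did not pass, with a median of 0.16, beside 15.1% higher. All 16 differed between the lines with a difference above 0, beside 9.6% of all tested genes. PLK1, a kinase of mitosis, had 97.5, 89.1 and 87.1 CPM with si-circASH2 and 134, 131 and 127 CPM with si-NC in Huh7 (-0.52 ± 0.04), and 213, 219 and 219 CPM with si-circASH2 and 220.0, 212 and 226 CPM with si-NC in HCCLM3 (-0.01 ± 0.04, adjusted p = 0.86). TPX2, which binds KIF11 and KIF15 on the spindle, was at -0.36 ± 0.03 in Huh7 and 0.06 ± 0.03 in HCCLM3 (adjusted p = 8.2e-09 and 0.18). CENPF, a kinetochore protein, crossed over most widely. It had 154, 172 and 162 CPM with si-circASH2 against 202, 201 and 198 CPM with si-NC in Huh7 (-0.30 ± 0.04), and 312, 314 and 282 CPM with si-circASH2 against 211, 220.0 and 210.4 CPM with si-NC in HCCLM3 (0.50 ± 0.04, difference 0.80 ± 0.06, adjusted p = 1.9e-09). AURKB, the kinase of the chromosomal passenger complex, was at -0.51 ± 0.05 in Huh7 and 0.17 ± 0.05 in HCCLM3. Its partners INCENP and CDCA8, named after their values were seen, were at -0.26 ± 0.05 and -0.31 ± 0.04 in Huh7 and at 0.33 ± 0.05 and 0.24 ± 0.04 in HCCLM3. The last member of the complex, BIRC5, was at -0.08 ± 0.05 in Huh7 (adjusted p = 0.21) and rose by 0.18 in HCCLM3 (adjusted p = 0.003).

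Transport kinesins showed no common direction. In Huh7 4 of 17 rose, 2 fell and 11 did not pass, with a median of 0.08, and in HCCLM3 5 rose, 4 fell and 8 did not pass, with a median of 0.04. These 8 include KIF5C, at 0 counts in HCCLM3, and KIF5A, at 0 to 8 counts there, whose effects cannot be measured in that line. Over all tested genes 16.3% were higher and 15.1% lower in Huh7, and 15.1% were higher and 15.5% lower in HCCLM3. With 17 genes the counts of either line lie within a few genes of those shares, and no result about the class is drawn from them. The count of 5 higher in HCCLM3 lay between 1 and 5 under the other settings. KIF1B, KIF1C and KIF13A rose in both lines, KIF5B and KLC2 fell in both, and 7 were called in neither. The summed level moved little, with 1398 ± 6.09 CPM with si-circASH2 and 1414 ± 14.7 CPM with si-NC in Huh7, and 1286 ± 19.6 CPM with si-circASH2 and 1291 ± 17.1 CPM with si-NC in HCCLM3. Across 16 transport genes, with KIF5A but without KIF5C, the effects in the 2 lines had r = 0.20 and rho = 0.30.

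The RNA of the main heavy chain of kinesin-1 fell in both lines. KIF5B, the ubiquitous heavy chain, had 230.4, 236 and 241 CPM with si-circASH2 and 325, 307 and 303 CPM with si-NC in Huh7. In HCCLM3 it had 223, 222 and 220.1 CPM with si-circASH2 and 287, 276 and 273 CPM with si-NC. The groups stood clear of each other in both lines, and KIF5B fell by 24.2% in Huh7 (-0.40 ± 0.04, adjusted p = 5.7e-09) and by 20.4% in HCCLM3 (-0.33 ± 0.04, adjusted p = 1.3e-07). The difference between the lines was 0.07 with a 95% interval of -0.04 to 0.19 (adjusted p = 0.36). KIF5B kept its calls under every alternative and without each library. Among the mitotic kinesins, by contrast, none was called lower in both lines. KLC2 was the other transport gene lower in both lines.

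The other heavy chains were minor. KIF5A, a neuronal form, had 3.66, 3.58 and 4.54 CPM with si-circASH2 and 4.99, 4.14 and 5.44 CPM with si-NC in Huh7 (-0.31 ± 0.24, adjusted p = 0.38), and only 2, 8 and 2 counts with si-circASH2 and 4, 5 and 0 counts with si-NC in HCCLM3. KIF5C, also neuronal, had 34.4, 32.5 and 36.4 CPM with si-circASH2 and 36.7, 32.6 and 34.5 CPM with si-NC in Huh7 (log2 fold change -0.01 ± 0.07, 95% interval -0.18 to 0.16), and 0 counts in all 6 libraries of HCCLM3. KIF5B made up 87.7% ± 0.603 of the summed heavy-chain FPKM in Huh7 with si-circASH2 and 90.1% ± 0.445 with si-NC, where FPKM are the deposited levels per length. In HCCLM3 it made up 99.9% with si-circASH2 and 100% with si-NC.

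Of the light chains, which couple kinesin-1 to cargo, KLC2 followed KIF5B. It had 67.4, 72.2 and 69.7 CPM with si-circASH2 and 82.9, 79.4 and 81.2 CPM with si-NC in HCCLM3 (-0.22 ± 0.04, adjusted p = 0.00027). In Huh7 it had 137, 126 and 128 CPM with si-circASH2 and 139.9, 143 and 144 CPM with si-NC (-0.13 ± 0.04, adjusted p = 0.018), a call lost without si-NC replicate 2 or 3 or si-circASH2 replicate 2 or 3 (adjusted p 0.0538 to 0.0852). KLC1 rose in HCCLM3 by 0.12 (adjusted p = 0.035) and was at 0.08 ± 0.04 in Huh7 (adjusted p = 0.21). The HCCLM3 call of KLC1 was lost without any one of 5 libraries (all but si-circASH2 replicate 3) and with limma on FPKM, and KLC1 overlaps BAG5 and XRCC3 on the opposite strand. KLC4 was at 0.13 ± 0.10 in Huh7 and 0.04 ± 0.11 in HCCLM3 (adjusted p = 0.33 and 0.85). KLC4 overlaps CUL7 and MRPL2 on the opposite strand. CUL7 had a mean of 909 counts against 316 for KLC4. It was at 0.30 in Huh7 and 0.26 in HCCLM3 (adjusted p = 0.00096 and 0.0076), and MRPL2 was called in neither line.

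In kinesin-2, which carries cargo into cilia and along cell processes, the subunits gave different values. KIF3B had 111, 114 and 109 CPM with si-circASH2 and 93.9, 96.2 and 98.4 CPM with si-NC in Huh7 (0.21 ± 0.04, adjusted p = 0.00024), and 0.04 ± 0.04 in HCCLM3 (adjusted p = 0.5). The difference of -0.17 ± 0.06 passed the test (adjusted p = 0.034) but not without Huh7 si-NC replicate 1 or 2, Huh7 si-circASH2 replicate 2, HCCLM3 si-NC replicate 2 or HCCLM3 si-circASH2 replicate 1 or 3. It was also lost with no filter (adjusted p = 0.0537) and with limma on FPKM (adjusted p 0.0827 to 0.0878). KIF3C rose in HCCLM3, with 91.4, 93.2 and 91.4 CPM with si-circASH2 and 77.3, 76.2 and 79.7 CPM with si-NC (0.24 ± 0.06, adjusted p = 0.0015), a call lost with limma on FPKM at a pseudocount of 0.1. In Huh7 it was at 0.22 ± 0.09 (adjusted p = 0.057, and 0.0082 without si-NC replicate 3), and passed with DESeq2 (0.046), upper quartile factors (0.0433) and library size alone (0.0466). KIF3A was at 0.14 ± 0.10 in Huh7 and -0.22 ± 0.09 in HCCLM3 (adjusted p = 0.3 and 0.06), and the difference of -0.35 ± 0.13 had an adjusted p of 0.053.

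Of the vesicle motors of the kinesin-3 family, KIF1C, KIF13A and KIF1B were called higher in both lines, and KIF16B and KIF13B in neither. KIF1C had 256, 241 and 242 CPM with si-circASH2 and 222, 228 and 224 CPM with si-NC in Huh7, and 215, 219.6 and 221 CPM with si-circASH2 and 187, 183 and 179.8 CPM with si-NC in HCCLM3. The groups did not overlap in either line, and KIF1C rose by 9.54% in Huh7 and 19.4% in HCCLM3 (0.13 ± 0.03 and 0.26 ± 0.03, adjusted p = 0.0045 and 3.7e-06). KIF13A, a motor of recycling endosomes, had 43.5, 44.7 and 42.7 CPM with si-circASH2 and 35.3, 34.03 and 35.2 CPM with si-NC in Huh7 (0.33 ± 0.05, adjusted p = 1.2e-05). In HCCLM3 it had 57.4, 57.4 and 54.3 CPM with si-circASH2 and 49.0, 49.7 and 47.9 CPM with si-NC (0.21 ± 0.05, adjusted p = 0.0014). KIF1B, of vesicles and mitochondria, was at 0.14 ± 0.04 in Huh7 and 0.18 ± 0.04 in HCCLM3 (adjusted p = 0.0096 and 0.0018). With limma on FPKM the KIF1B calls were lost in both lines and its Huh7 value was 0.07, and the Huh7 call was also lost without si-NC replicate 2 (adjusted p = 0.051). KIF13A missed the threshold there in Huh7 with either pseudocount. Its HCCLM3 call was lost with a pseudocount of 0.1 (adjusted p 0.0559 and 0.0727). KIF16B, of early endosomes, went the other way in HCCLM3, with 53.6, 56.3 and 50.9 CPM with si-circASH2 and 59.1, 58.8 and 63.5 CPM with si-NC (-0.17 ± 0.05, adjusted p = 0.015), a call lost without si-NC replicate 3 or si-circASH2 replicate 3 and with limma on all genes above 0 (adjusted p = 0.054). It was at -0.04 ± 0.06 in Huh7 (adjusted p = 0.72). KIF13B was at -0.02 ± 0.05 in Huh7 and 0.05 ± 0.06 in HCCLM3, with neither passing.

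Of the remaining transport motors KIFC2, a kinesin-14, changed in HCCLM3. It had 21.7, 22.0 and 26.2 CPM with si-circASH2 and 38.9, 33.8 and 36.0 CPM with si-NC there, a fall by 35.7% (-0.64 ± 0.10, adjusted p = 2.3e-05). In Huh7, where the gene was scarce, it had 5.08, 5.93 and 4.07 CPM with si-circASH2 and 3.90, 5.01 and 4.95 CPM with si-NC (0.12 ± 0.14, adjusted p = 0.56). The difference between the lines was -0.76 ± 0.17 (adjusted p = 0.0022). KIF21A, which limits microtubule growth at the cell cortex, was at 0.04 ± 0.04 in Huh7 and 0.04 ± 0.04 in HCCLM3, with 95% intervals of -0.05 to 0.13 and -0.05 to 0.13. KIFC3, another minus-end-directed motor, was at 0.07 ± 0.05 in Huh7 and 0.09 ± 0.06 in HCCLM3 (adjusted p = 0.36 and 0.24).

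**Figure D4:**
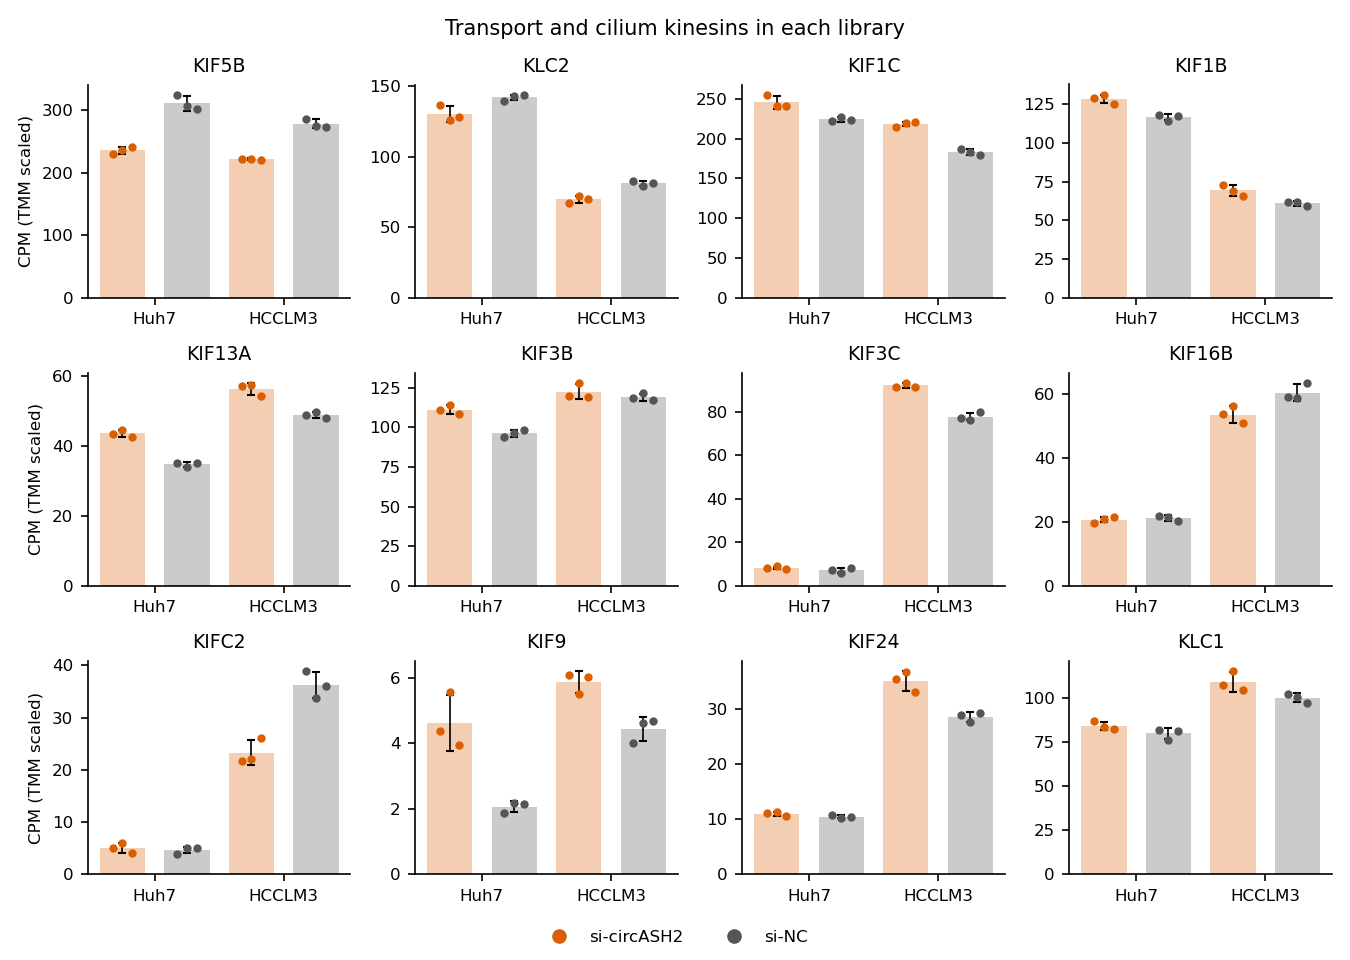
CPM of 10 transport kinesin genes and of KIF9 and KIF24 in each library (points), with the group mean (bar) and SD (n = 3), si-circASH2 left of si-NC in each line and a scale starting at 0 for each gene. KIF5B is lower with si-circASH2 in both lines, KIF1C and KIF13A are higher in both, and KIFC2 is lower in HCCLM3.

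Among the 5 kinesins of the cilium and of microtubule ends, 1 rose in Huh7 and 2 in HCCLM3, and none fell, beside 16.3% of all tested genes higher in Huh7 and 15.1% in HCCLM3. KIF9, a motor of motile cilia, had 4.37, 5.57 and 3.94 CPM with si-circASH2 and 1.87, 2.17 and 2.13 CPM with si-NC in Huh7, which were 129, 168 and 118 counts and 57, 65 and 65 counts. All si-circASH2 libraries stood well above the si-NC libraries, and the fold change of 2.25 (1.17 ± 0.16, adjusted p = 6.1e-06) was the largest of any of the 35 genes in either knockdown. In HCCLM3 KIF9 had 6.10, 5.51 and 6.04 CPM with si-circASH2 and 4.003, 4.62 and 4.68 CPM with si-NC (0.41 ± 0.15, adjusted p = 0.042). That call was lost when any one of the HCCLM3 libraries was left out (adjusted p 0.0511 to 0.163), under the replicate block (adjusted p = 0.0547), with no filter (adjusted p = 0.0557) and with limma on FPKM (adjusted p 0.169 to 0.355). The difference of -0.76 ± 0.22 passed (adjusted p = 0.016), but not without Huh7 si-circASH2 replicate 2 (0.063) nor in any of 3 fits with limma on FPKM (0.157 to 0.208), where its value came to -0.40 with a pseudocount of 1. KIF9 overlaps KLHL18 on the opposite strand, which had a mean of 838 counts against 127 for KIF9 and was at 0.24 in Huh7 (adjusted p = 0.0116) and -0.02 in HCCLM3 (0.892), and the part of such reads in the rise of KIF9 was not tested.

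KIF24, which holds back cilium assembly at the mother centriole, had 35.4, 36.8 and 33.2 CPM with si-circASH2 and 28.9, 27.7 and 29.3 CPM with si-NC in HCCLM3 (0.30 ± 0.06, adjusted p = 0.00061). In Huh7 it had 11.1, 11.2 and 10.6 CPM with si-circASH2 and 10.8, 10.3 and 10.4 CPM with si-NC (0.07 ± 0.07, adjusted p = 0.55), and the difference did not pass (adjusted p = 0.098). KIF27, a relative of KIF7, had 6.44, 5.47 and 5.81 CPM with si-circASH2 and 4.91, 4.62 and 4.48 CPM with si-NC in HCCLM3. Its groups did not overlap there, but the value of 0.34 ± 0.15 missed the threshold (adjusted p = 0.1), and passed with the line fitted alone (0.0337) and with limma on log2(FPKM + 1) (0.0405). KIF7, which acts at the tip of the cilium in hedgehog signalling, was at -0.04 ± 0.10 in Huh7 and 0.03 ± 0.14 in HCCLM3. KIF2A, a microtubule depolymerase of interphase cells and spindle poles, had 71.6, 73.7 and 75.1 CPM with si-circASH2 and 79.5, 58.5 and 76.6 CPM with si-NC in Huh7, and 66.2, 53.5 and 68.0 CPM with si-circASH2 and 59.1, 71.2 and 74.6 CPM with si-NC in HCCLM3. This scatter among replicates was wide for its level, and the 95% intervals were -0.28 to 0.36 and -0.45 to 0.20. KIF24 and KIF7 overlap UBAP1 and TICRR on the opposite strand. UBAP1 was called in neither line. TICRR had a mean of 1404 counts against 305 for KIF7. It was at -0.52 in Huh7 (adjusted p = 7.1e-09) and 0.14 in HCCLM3 (adjusted p = 0.0274), and the part of such reads in the values of KIF7 was not tested.

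Adaptors and partners of the transport motors were mixed. Of 21 listed genes 20 were tested, 7 rose and 1 fell in Huh7 with a median of 0.01, beside 16.3% and 15.1% of all tested genes. In HCCLM3 6 rose and 3 fell with a median of 0.01, beside 15.1% and 15.5%. BICD2, an adaptor of dynein, the motor that runs opposite to most kinesins, had 62.9, 61.3 and 60.2 CPM with si-circASH2 and 41.4, 39.7 and 38.4 CPM with si-NC in Huh7, and 57.4, 53.5 and 52.7 CPM with si-circASH2 and 26.2, 27.0 and 28.4 CPM with si-NC in HCCLM3 (higher by 54.4% and 100.5%, adjusted p = 1.5e-09 and 8.4e-13). TRAK1, which links kinesin-1 to mitochondria, rose in both lines as well, by 0.31 and 0.52 (adjusted p = 5.2e-06 and 1.1e-09). Its relative TRAK2 was at -0.30 ± 0.05 in Huh7 (adjusted p = 3.3e-05) and -0.11 ± 0.05 in HCCLM3 (adjusted p = 0.12). MAPK8IP3, the cargo adaptor JIP3, fell in HCCLM3 (-0.36 ± 0.05, adjusted p = 4.7e-06) and was at 0.12 ± 0.05 in Huh7 (adjusted p = 0.091).

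With the control siRNA alone the lines differed in most kinesins, as in most genes. Of the 35 genes 13 were higher and 17 lower in HCCLM3 than in Huh7, beside 85.2% of all tested genes called, 41.6% higher and 43.6% lower. The line and the handling of its libraries cannot be told apart in this comparison. Transport kinesins differed in all 17 cases, 7 higher and 10 lower. KIF5A and KIF5C, among the 10 lower, passed the filter on low counts through their Huh7 libraries only. KIF3C had 77.3, 76.2 and 79.7 CPM in the si-NC libraries of HCCLM3 and 7.28, 5.98 and 8.13 CPM in those of Huh7 (3.44 ± 0.07, adjusted p = 6.9e-23). KIFC2 had 38.9, 33.8 and 36.0 CPM in HCCLM3 and 3.90, 5.01 and 4.95 CPM in Huh7 (2.97 ± 0.11), and KIF16B had 59.1, 58.8 and 63.5 CPM in HCCLM3 and 21.8, 21.5 and 20.3 CPM in Huh7 (1.51 ± 0.06). The heavy chains KIF5C and KIF5A went the other way. KIF5C averaged 34.6 CPM in Huh7 and had 0 counts in HCCLM3, at least 1025-fold lower against a floor of 3 counts over the group. KIF5A, with 4, 5 and 0 counts in HCCLM3, was lower by 5.52 ± 0.40. No p is given for KIF5A, since it was tested only through its Huh7 counts. KIF1B was lower by 0.94 (adjusted p = 3.7e-16), with 62.0, 61.8 and 59.2 CPM in HCCLM3 and 118, 115 and 118 CPM in Huh7. KLC2 at -0.81 ± 0.04, KIF13B at -1.05 ± 0.06 and KLC4 at -0.75 ± 0.10 were lower in HCCLM3 too.

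The mitotic kinesins had no common direction at baseline, with 3 higher in HCCLM3, 6 lower and 4 not called, and a median of -0.06. KIF4A had 203, 208 and 207 CPM in HCCLM3 and 92.8, 96.2 and 94.1 CPM in Huh7 (1.12 ± 0.04, adjusted p = 7.4e-19). KIF14 was also higher in HCCLM3, by 100.3% (adjusted p = 9.2e-15). Lower ones included KIF2C (-0.64 ± 0.04), KIF15 (-0.61 ± 0.05) and KIF18B (-0.56 ± 0.05), while KIF11 was at -0.06 ± 0.04 (adjusted p = 0.2). Of the cilium class KIF24 (1.45 ± 0.07), KIF9 (1.11 ± 0.16) and KIF27 (0.65 ± 0.16) were higher in HCCLM3 and KIF7 (-2.14 ± 0.12) was lower.

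Ranked per length within each line, KIF5B stood first in both, at 42.1 ± 1.64 FPKM in the si-NC libraries of HCCLM3 and 46.9 ± 2.02 FPKM in those of Huh7 (SD, n = 3). In HCCLM3 KIF4A followed at 42.0 ± 0.380 FPKM, within the range of KIF5B, and then KLC1 at 30.4 ± 1.34 and KIF21A at 27.5 ± 0.395 FPKM. In Huh7 KLC2 followed at 42.1 ± 0.510 FPKM, and then KIF21A at 37.1 ± 1.72 and KIF2C at 35.2 ± 0.994 FPKM, whose libraries overlapped. At the low end stood KIF27, KIF7, KIF5A and KIF5C in HCCLM3, all under 1.05 FPKM in every library, and KIF27 and KIF5A in Huh7, under 0.83 FPKM in every library. Mitotic kinesins made up 40.1% ± 0.428 of the summed FPKM of the 35 genes in Huh7 with si-circASH2 and 46.6% ± 0.667 with si-NC. In HCCLM3 they made up 49.6% ± 0.230 with si-circASH2 and 47.2% ± 0.130 with si-NC, so the si-NC shares of the lines lay close together and the si-circASH2 shares apart.

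**Figure D5:**
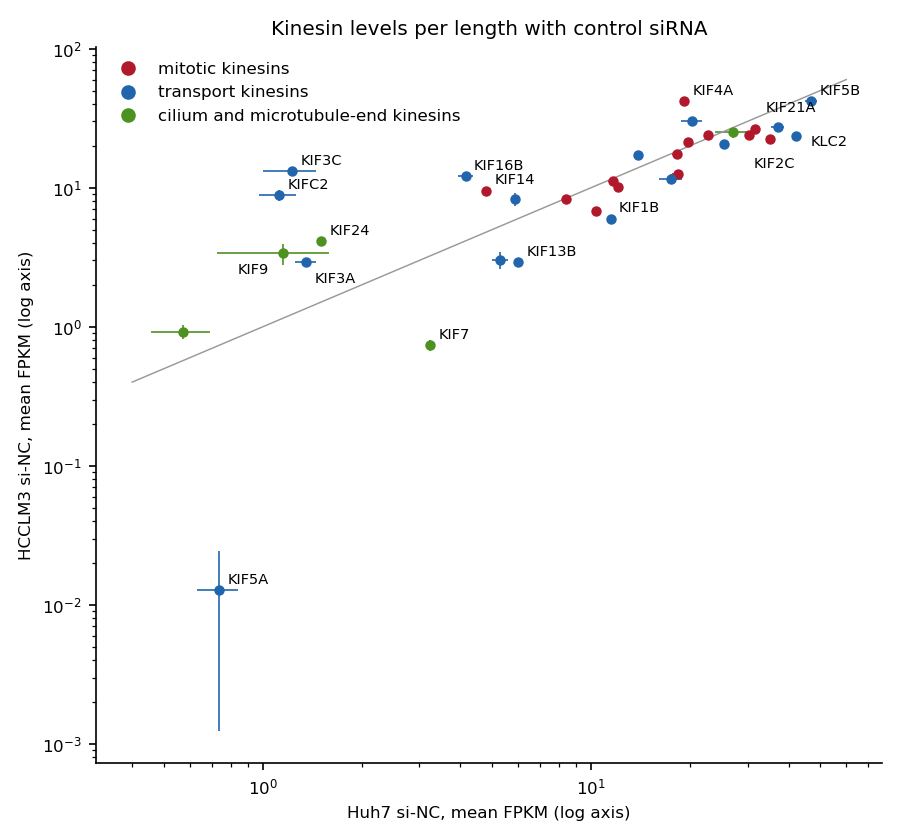
Mean deposited FPKM of 34 kinesin genes in the si-NC libraries of HCCLM3 (vertical) and Huh7 (horizontal), both on log axes, with SD (n = 3) as bars and the line of equal level. KIF3C, KIFC2 and KIF4A lie above the line, KIF7, KIF13B and KIF5A below it, and KIF5C, at 0 in HCCLM3, is not drawn.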

How the data were processed

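RNA sequencing gave expression values for 12 libraries, which the labels put into 4 groups of 3. Total RNA was used with a SMARTer mRNA kit, per the labels' protocols. The authors deposited a table of counts per gene and library and a table of FPKM, which per the file headers hold the same libraries, the FPKM being scaled for gene length and depth. The sources used here do not give the aligner, the counting tool, the strand setting or the annotation. The builds hg38, GRCm38 and mm10 are named, with no role, in the submitters' processing notes. The count 1 occurs 1938 times, the count 2 occurs 6826 times and the count 3 occurs 4777 times, an order that plain read counts would not be likely to give at the low end.

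Features were filtered with filterByExpr (minimum count of 10), scaled by TMM and fitted with the robust quasi-likelihood model of edgeR 4.0.16 in R 4.3.3, with 1 coefficient for each group. This left 8 residual degrees of freedom, and the common biological variation was 5.65% (as a coefficient). P-values of the knockdown in each line, of the difference between the lines and of HCCLM3 against Huh7 with si-NC were adjusted by Benjamini and Hochberg over all 16946 tested features, with a threshold of 0.05. Standard errors were derived from each log2 fold change and its F statistic (size over root F), and intervals cover 95%. The code was tested on simulated data. An exact permutation test of 3 against 3 libraries cannot go below p = 0.1, so none is given. At this depth 3 counts in a library were worth 0.0981 to 0.105 CPM, and such floors cover counting error only. FPKM served for levels between genes and for limma 3.58.1 on log2(FPKM + 0.1) or log2(FPKM + 1). Further alternatives were DESeq2 1.42.0, upper quartile factors, library size alone, no filter, each line fitted alone, the replicate number as a block, and leaving out each library.

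Places and 3′ UTRs are from GENCODE 29 (GRCh38), and promoters from RefSeq (GRCh38.p14). The members, the lists of partners and the motifs were chosen with earlier results of these data known, so no list is tested. All members are named. CPM of every library are given for at least the 4 members of each class with the smallest p in either knockdown and for up to 6 each by the difference and at baseline, and partners are named by the 4 smallest p unless stated. Replicate numbers did not pair the libraries. KIF13B and KIFC2 lie on chromosome 8 and no sequence of them is shown.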

Additional observations from a re-analysis of the deposited data

Results flagged for a closer look

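The knockdown effect differed between HCCLM3 and Huh7 for 16 of the 35 kinesin genes by edgeR's interaction test, beside 20.9% of all tested genes, and each value here is the log2 fold change in HCCLM3 minus that in Huh7. Of the motors that shape the spindle, KIF15 differed by 0.61, KIFC1 by 0.49 and KIF11 by 0.43. Of the motors on chromosomes, KIF22 differed by 0.62, KIF4A by 0.54, CENPE by 0.49 and KIF18A by 0.42. The microtubule-shortening motors KIF2C and KIF18B differed by 0.53 and 0.42. Among the cytokinesis motors, KIF23 differed by 0.65, KIF20A by 0.54, KIF20B by 0.44 and KIF14 by 0.40. These 13 genes were called lower in Huh7, and 10 of them were called higher in HCCLM3.

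The other 3 genes had differences below 0. KIFC2 differed by -0.76, with a fall called in HCCLM3 and not in Huh7. KIF9 differed by -0.76, with a larger rise in Huh7 than in HCCLM3. KIF3B differed by -0.17, with a rise called in Huh7 and not in HCCLM3. The cause of these differences was not tested.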

How the results depend on the processing

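None of 1781 recomputed fold changes of called kinesin genes changed sign, while 59 of 1087 of those not called did, in 12 genes. Recomputed gene values kept their direction and side of the threshold in 699 of 735 cases in Huh7, 628 of 713 in HCCLM3, 652 of 700 for the difference and 698 of 700 at baseline. The counts of 13 mitotic kinesins lower in Huh7, 13 higher in the difference, and 13 higher and 17 lower kinesins at baseline were the same in every setting run. Over all tested genes, calls lay between 4187 and 5386 in Huh7 and between 3924 and 5899 in HCCLM3.

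With limma on FPKM, for both pseudocounts and with or without the filter, 2 transport kinesins rose in Huh7 (4 with edgeR), 1 was lower in the difference (2 with edgeR) and 0 of the cilium class were (1 with edgeR). In HCCLM3, 3 transport kinesins rose with a pseudocount of 1 and 1 with a pseudocount of 0.1 (5 with edgeR). The count of 2 cilium kinesins higher in HCCLM3 became 1 with a pseudocount of 0.1, with no filter on low counts and under the replicate block, and 3 with each line fitted alone. With no filter 1 transport kinesin was lower in the difference. Why these counts changed was not tested.

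Leaving out 1 library at a time gave 5 to 11 higher mitotic kinesins and 1 to 2 higher cilium kinesins in HCCLM3, 1 to 2 lower transport kinesins in Huh7, and 1 to 3 transport and 0 to 1 cilium kinesins lower in the difference. Replicate numbers did not pair the libraries: correlations of deviations were -0.19 to 0.14, with 3 of 18 pairs over 0.1 and 2 of 12 libraries closest to one of the same number. The replicate block moved the KIF9 call of HCCLM3 (adjusted p = 0.0547) and the KIF3A difference (adjusted p = 0.0465), and no other call of a member. Over all settings, the median log2 fold change of all tested genes lay between 0 and 0.03 in the knockdown comparisons. At this depth KIF5A in HCCLM3 (2 to 8 counts with si-circASH2, 0 to 5 with si-NC) gives no measurable knockdown effect.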

Other observations

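Kinesin genes outside the 35 were mostly scarce. Of 13 further genes 8 passed the filter, and their calls depended on the tool. In Huh7, edgeR called 0 (3 at an unadjusted p under 0.05), DESeq2 called 0, and limma on FPKM called 3 with a pseudocount of 0.1 and 2 with a pseudocount of 1. In HCCLM3, edgeR called 0 (2 at an unadjusted p under 0.05), DESeq2 called 1, and limma called 0 with a pseudocount of 0.1 and 1 with a pseudocount of 1. Their summed level in Huh7 was 61.9 ± 3.58 CPM with si-circASH2 and 63.0 ± 4.53 CPM with si-NC. In HCCLM3 it was 13.9 ± 1.30 CPM with si-circASH2 and 12.9 ± 0.810 CPM with si-NC (SD, n = 3 each). With si-NC, 1 of the 8 was higher in HCCLM3 than in Huh7 and 6 were lower. The higher one, named after its value was seen, was KIF17, a motor of dendrites and cilia. KIF17 passed the filter through its HCCLM3 libraries only, and KIF6 and KLC3 through their Huh7 libraries only.

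The words TTATACC and TATACCA, which earlier work on these libraries had picked out in 3′ UTRs, were looked up in the kinesin genes. Either word stood in the 3′ UTR of 4 of 35 members, beside 14.7% of 13994 tested genes with a 3′ UTR. The sites are printed with 10 bases on each side (GENCODE 29, GRCh38) and the word in capitals, for KIF5B (chr10:32011395-32011401, minus strand), KIF3A (chr5:132694060-132694066, minus strand), KIF1B (chr1:10304824-10304830, plus strand) and KIF13A (chr6:17770394-17770400, minus strand).
KIF5B: aatgtataaaTTATACCtggcctgtac
KIF3A: ttaaaactgaTTATACCagatggacat
KIF1B: cttttgcttgTATACCAtaaatgggca
KIF13A: aggttataaaTTATACCtcaatttaca
KIF5B fell in both lines, KIF1B and KIF13A rose in both, and KIF3A was called in neither. KIF3A also holds TATACCA, which overlaps the printed word. TCGGAGAA, another word of that earlier work, stood in the 3′ UTR of 0 members, beside 0.736% of the tested genes.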
